A study of Mus musculus with 18 samples.

Results

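The microRNAs mmu-miR-193 and mmu-miR-365 are encoded by hairpins that lie beside each other in the mouse genome, and their signal was measured in the livers of mice given benzo(a)pyrene (BaP). They were chosen by name and make up 2 of the 576 microRNA names on the array, 4 of its 1712 probes and 40 of its 11540 non-control spots. BaP is a polycyclic aromatic hydrocarbon from combustion that liver enzymes convert to DNA-binding metabolites. The animals were male Muta™Mouse of transgenic strain 40.6, which carries a bacterial lacZ reporter in every cell, and were 25 weeks of age. All received olive oil by gavage daily for 28 days, either alone (control) or with BaP at a daily dose of 25, 50 or 75 mg/kg, and livers were taken 3 days after dosing ended. Arrays of 3 control animals and of 5 animals at each dose were analysed, with 1 single-colour Agilent array per animal. The comparisons address whether BaP doses that are mutagenic in liver change the level of hepatic microRNAs. All values are from liver tissue, so fewer cells of a type and less RNA per cell cannot be told apart.

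A microRNA is cut from a hairpin as a short strand that pairs with messenger RNAs, mainly through bases 2 to 8 of the strand, the seed, and lowers their output. The miR-193 and miR-365 hairpins occur as neighbours at more than 1 place in mammalian genomes. The pair is best known from brown fat, where miR-193b and miR-365 favour the brown fat fate over the muscle fate, and miR-193a has been described as a restraint on growth in several tumours.

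The strands read here are printed first because the array can separate some of them and not others. The seed is in capitals, and sequences and positions are those of RefSeq on mouse build GRCm38.p6.
mmu-miR-193a-3p: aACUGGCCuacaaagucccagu
mmu-miR-193b-3p: aACUGGCCcacaaagucccgcu
mmu-miR-365-3p: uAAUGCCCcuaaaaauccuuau
The array name mmu-miR-193 was read as miR-193a-3p, since the array has separate names for the opposite strand (mmu-miR-193*) and for mmu-miR-193b, and mmu-miR-365 was read as miR-365-3p. The sequences of the probes themselves were not used here. miR-193a-3p and miR-193b-3p share the seed ACUGGCC and are identical at 19 of 22 bases. Counted from 1 at the 5′ end of miR-193a-3p, they differ by U9C, A20G and G21C, all outside the seed. The seed of miR-365-3p, AAUGCCC, was held by no other mature mouse strand in the RefSeq table.

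The miR-365 strand has 2 source hairpins, shown with miR-365-3p in capitals, followed by the hairpin of miR-193a with miR-193a-3p in capitals.
Mir365-2, chr11:79726400-79726511, plus strand: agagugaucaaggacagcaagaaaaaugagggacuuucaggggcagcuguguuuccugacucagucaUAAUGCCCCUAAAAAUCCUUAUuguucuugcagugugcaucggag
Mir365-1, chr16:13453840-13453926, plus strand: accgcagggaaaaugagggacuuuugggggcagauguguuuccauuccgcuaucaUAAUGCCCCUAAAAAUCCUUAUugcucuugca
Mir193a, chr11:79711969-79712034, plus strand: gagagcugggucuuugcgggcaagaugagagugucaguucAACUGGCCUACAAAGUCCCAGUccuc
Both hairpins yield the same 22-base strand, so a signal for mmu-miR-365 cannot be assigned to either. On chromosome 11, Mir193a and Mir365-2 are separated by 14365 bases, and no other annotated gene overlaps the 14543 bases they span. The nearest protein-coding genes there are Rab11fip4, which ends 13952 bases before the pair, and Utp6, which starts 207444 bases after it. On chromosome 16, Mir193b and Mir365-1 are separated by 4238 bases, within a span of 4404 bases that the predicted genes Gm32817 and Gm53058 also overlap.

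**Figure D1:**
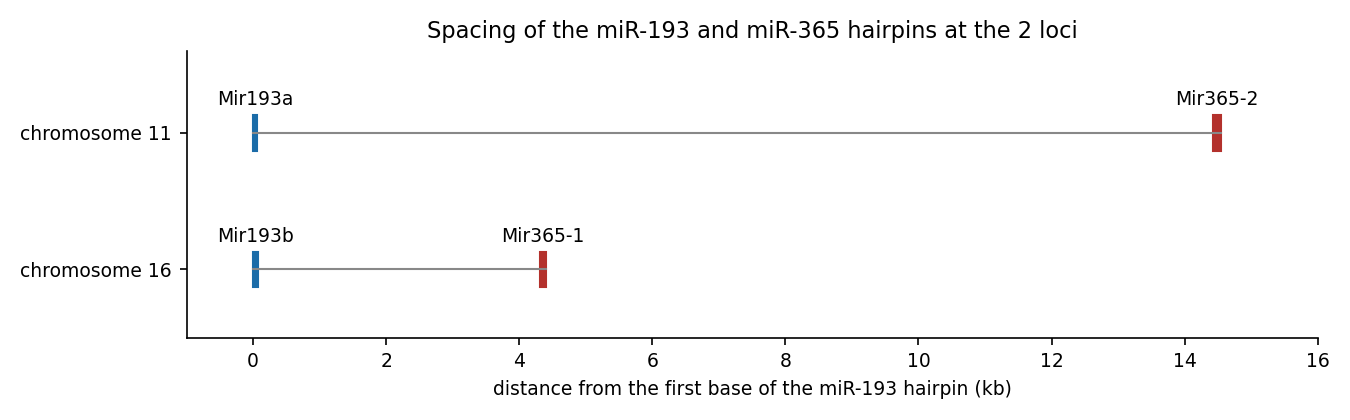
Positions of the miR-193 hairpins (blue) and miR-365 hairpins (red) at the 2 loci, drawn to scale as distance in kb from the first base of the miR-193 hairpin. The gap is 14365 bases on chromosome 11 and 4238 bases on chromosome 16.

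Both microRNAs were detected in every liver, and neither relative was. Agilent's software called mmu-miR-193 and mmu-miR-365 detected on 18 of 18 arrays, and mmu-miR-193b and mmu-miR-193* on 0 of 18. The 2 probes of mmu-miR-193b each had 180 spots over all arrays, of which 0 and 1 carried the scanner's flag for a signal well above background. Each of the 4 probes of mmu-miR-193*, the opposite strand of the miR-193a hairpin, had 90 spots and none was well above background. Thus the chromosome 11 product miR-193 was measured on every array, whereas the chromosome 16 product with the same seed was not above background, in control and dosed livers alike. The 4 hepatocyte microRNAs that were listed as markers (miR-122, miR-192, miR-194 and miR-148a) were present on all 18 arrays, and the total gene signal of miR-122 lay between 7964 and 32443.

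The probes of one microRNA did not perform alike. For mmu-miR-193, probe A_54_P2375 had all 10 of its spots well above background on every array, with median signals between 162 and 373. Its other probe, A_54_P2374, was dim, with median signals between 60.5 and 87, and 87 of its 180 spots were well above background. With at least 5 of 10 spots required, the dim probe was present on 7 of 7 arrays of slide 1, 1 of 4 of slide 2 and 1 of 7 of slide 3. By dose it was present on 1 of 3 controls and on 2, 3 and 3 of 5 arrays at 25, 50 and 75 mg/kg/day (Fisher's exact test of dosed against control arrays, two-sided, P = 1). The slides also differed in the median signal of all spots, which was 39.5 to 50.5 on slide 1, 63 to 69 on slide 2 and 58 to 64 on slide 3, and the part of this in detection was not tested. The dim probe did not meet the presence rule in any group, and the level of miR-193 given below rests on probe A_54_P2375 alone.

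For mmu-miR-365, probe A_54_P4391 was present on 18 of 18 arrays and probe A_54_P4390 on 17 of 18. The exception was replicate 4 at 25 mg/kg/day, where 1 of 10 spots was well above background. That array had the lowest share of spots well above background of all arrays, 5.72%, against up to 16.5% elsewhere. Both probes were dim, with median signals of 82.8 to 138 and 74 to 112. An upper limit was set from the negative-control spots of each array, as their mean plus 3 SD after a share of 0.05 was trimmed at each end. It lay between 47.6 and 83.4. By that limit the probes of miR-365 were above background on 18 and 16 arrays and the dim probe of miR-193 on 13, of which 3 were controls and 10 dosed (Fisher's exact P = 0.522). After slide means were removed, the 2 miR-365 probes correlated across the 18 arrays with r = 0.77 (rho = 0.79) and the 2 miR-193 probes with r = 0.41 (rho = 0.54), given as a description since probes of an array share its RNA and slide.

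**Figure D2:**
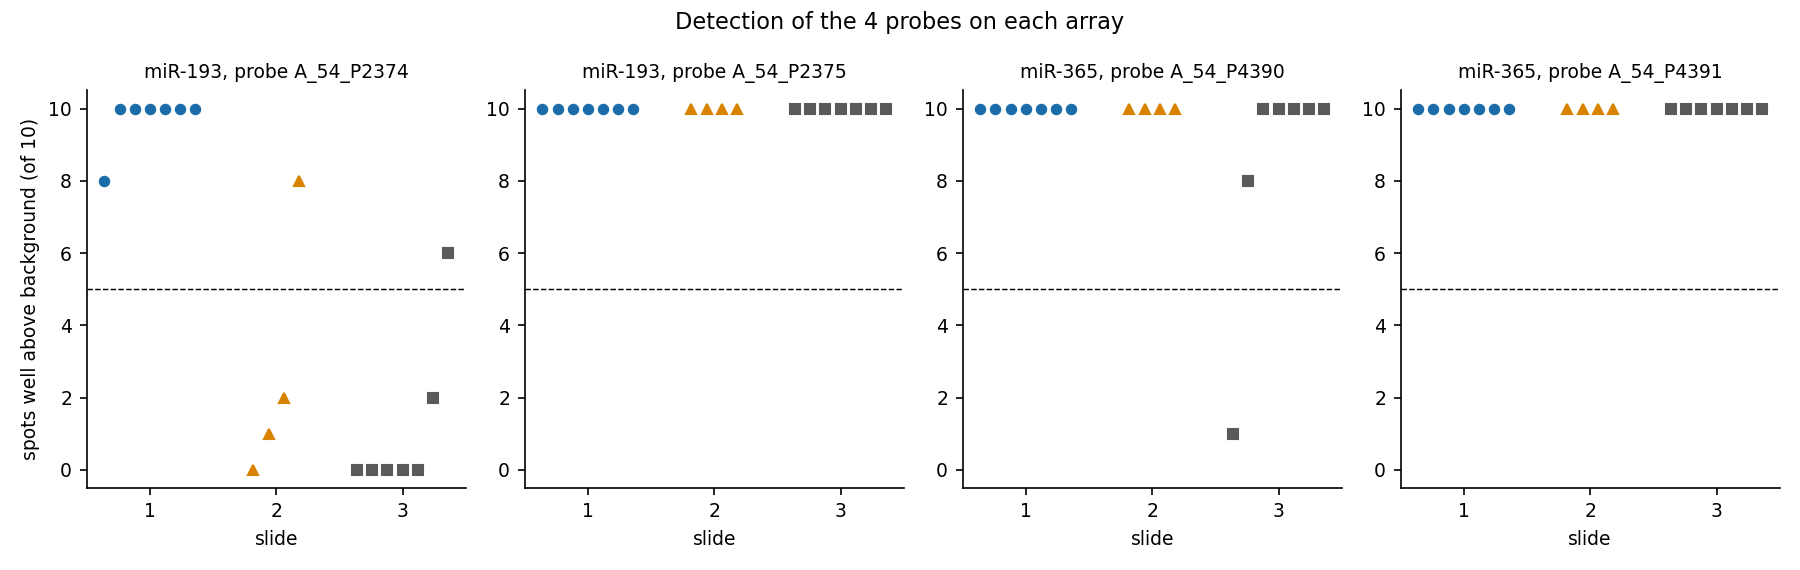
Number of the 10 spots of each probe that were well above background (vertical axis), with 1 point per array, by slide (horizontal axis; circles slide 1, triangles slide 2, squares slide 3). Probes A_54_P2375 and A_54_P4391 are at 10 on all arrays, while A_54_P2374 is above the dashed line at 5 on 9 arrays, 7 of them on slide 1.

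The levels below are log2 signals after normalisation between arrays, with background not subtracted, and a level of one microRNA is not set against that of the other, since probes differ in brightness. miR-193 was at 8.10, 7.60 and 7.94 in control replicates 1 to 3. It was at 7.89, 8.01, 7.80, 8.24 and 8.23 in replicates 1 to 5 at 25 mg/kg/day. At 50 mg/kg/day it was at 8.55, 8.12, 8.04, 7.93 and 7.58, and at 75 mg/kg/day at 8.24, 8.08, 8.00, 7.96 and 7.70. All groups overlapped, and the 50 mg/kg/day group held both the highest and the lowest of the 18 values. The means were 7.88 ± 0.26 in controls (SD, n = 3), 8.03 ± 0.20 at 25, 8.04 ± 0.35 at 50 and 8.00 ± 0.20 at 75 mg/kg/day (SD, n = 5 each). Above every control lay 2, 2 and 1 of the 5 arrays at successive doses.

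miR-365 was at 6.82, 6.59 and 6.61 in control replicates 1 to 3. It was at 6.76, 6.85, 6.61, 6.74 and 6.67 at 25 mg/kg/day, at 6.73, 6.76, 6.53, 6.57 and 6.57 at 50 mg/kg/day, and at 6.68, 6.66, 6.60, 6.62 and 6.53 at 75 mg/kg/day. These groups overlapped as well, and below every control lay 0, 3 and 1 of the 5 arrays at successive doses. The means were 6.67 ± 0.13 in controls (SD, n = 3), 6.73 ± 0.09 at 25, 6.63 ± 0.11 at 50 and 6.62 ± 0.06 at 75 mg/kg/day (SD, n = 5 each). By slide, the level of miR-365 averaged 6.75 on slide 1, 6.58 on slide 2 and 6.62 on slide 3, and that of miR-193 averaged 8.14, 7.98 and 7.87. The 4 arrays of slide 2 were all from the 50 and 75 mg/kg/day groups, with no control, so these means mix slide with dose, and slide was a block in the fits given here.

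**Figure D3:**
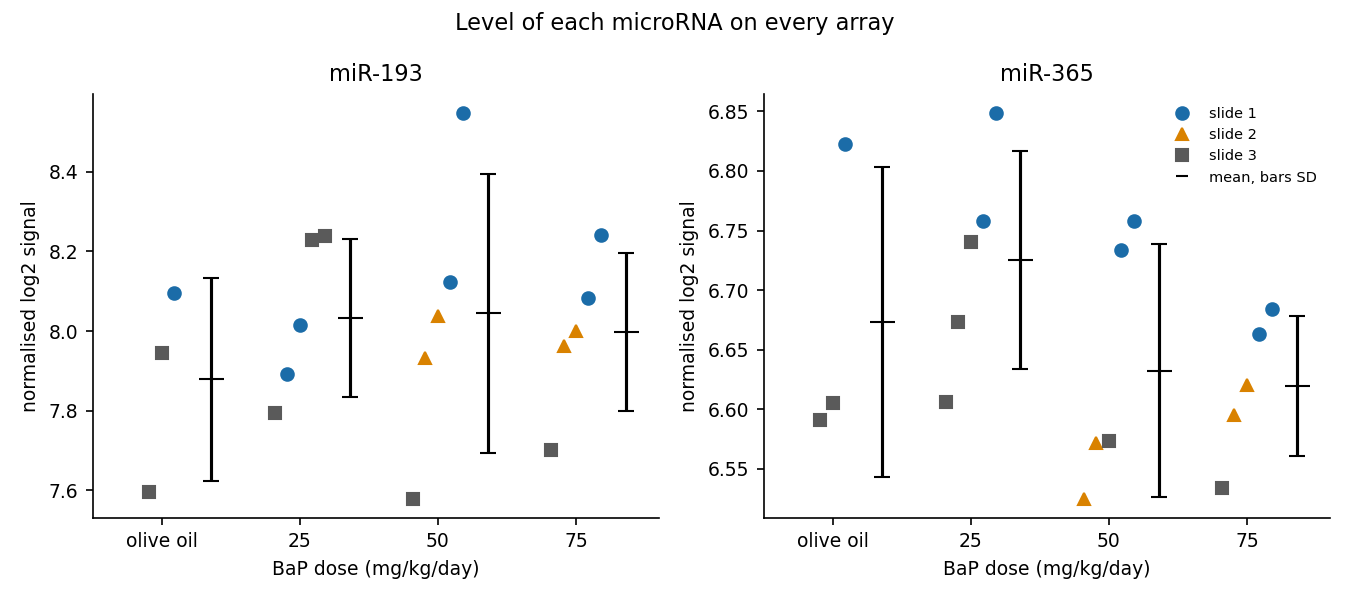
Normalised log2 signal of miR-193 (left) and miR-365 (right) on each of the 18 arrays by BaP dose in mg/kg/day, with symbols for the 3 slides, each group's mean (dash) and SD (bars). The vertical scales differ: miR-193 runs from 7.58 to 8.55 and miR-365 from 6.53 to 6.85, and the groups overlap in both.

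Neither microRNA changed past the threshold at any dose. The tests were fitted with limma over 69 names that met the presence rule, with slide as a block, with Benjamini-Hochberg adjustment of P over those names. miR-193 differed from control by 0.14 ± 0.16 on the log2 scale at 25 mg/kg/day (SE; adjusted P = 0.708), by 0.10 ± 0.17 at 50 mg/kg/day (adjusted P = 0.910) and by 0.05 ± 0.17 at 75 mg/kg/day (adjusted P = 0.967). At the highest dose the 95% interval of the change ran from -0.31 to 0.42, that is from 0.805 to 1.34 times the control signal. The design therefore leaves room for a moderate change of miR-193 in either direction. miR-365 differed from control by 0.04 ± 0.04 at 25 mg/kg/day (SE; adjusted P = 0.635), by -0.06 ± 0.04 at 50 mg/kg/day (adjusted P = 0.465) and by -0.08 ± 0.04 at 75 mg/kg/day (adjusted P = 0.291). Its interval at the highest dose was narrower, from -0.17 to 0.02, or 0.889 to 1.01 times the control signal. Background was kept in the signal of both microRNAs, so their changes are understated, the more for miR-365, whose probes were both dim. Neither interval therefore bounds the change of the microRNA itself. The size of the miR-365 difference also depended on the scaling. At 75 mg/kg/day miR-365 differed from control by -0.15 in the authors' table (95% interval -0.26 to -0.04; unadjusted P = 0.00909, adjusted P = 0.0789 with limma), where the median of all names was -0.11. It differed by -0.26 with array medians centred, by -0.15 in total gene signal and by 0.10 in processed signal, with intervals that included 0.

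Few other names passed either. Against control, 0 of 69 names (0%) passed at 25 mg/kg/day, 2 (2.9%) at 50 mg/kg/day and 4 (5.8%) at 75 mg/kg/day with limma. At these doses 7, 11 and 18 names had an unadjusted P under 0.05. Neither member was among those 7, 11 or 18. The names that passed at 50 mg/kg/day were miR-34a, a p53-responsive microRNA, with a log2 change of 1.17, and let-7c with -0.21. These also passed at 75 mg/kg/day, at 2.07 and -0.27, as did miR-10a at -0.25 and miR-199a-3p at -0.22. Without control replicate 1, the single control of slide 1, let-7c did not pass at 50 mg/kg/day (-0.16, adjusted P = 0.458 with limma), and none of the 3 lower names passed at 75 mg/kg/day (changes of -0.21, -0.24 and -0.20 in the order named, adjusted P = 0.107 for each). These 3 calls were also lost without slide in the model, with array medians centred and in processed signal.

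**Figure D4:**
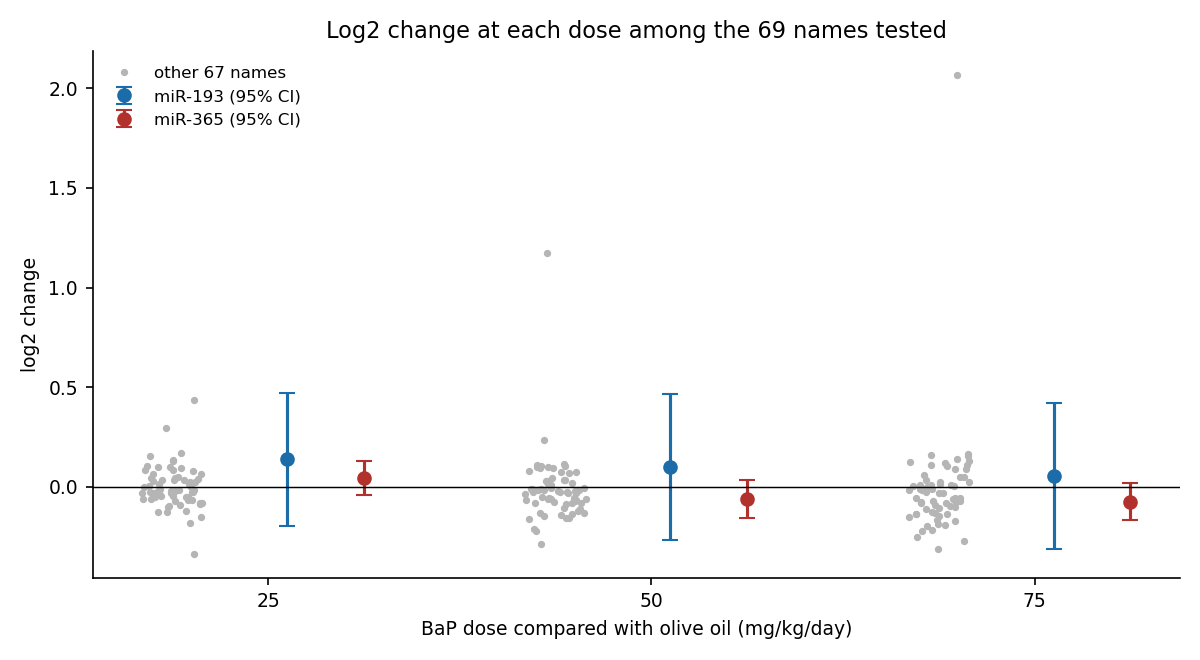
Log2 change from control at each BaP dose (horizontal axis, mg/kg/day) for miR-193 (blue) and miR-365 (red), with 95% intervals from limma, beside the other 67 names tested (grey points, no intervals drawn). All 6 intervals of the members include 0, and those of miR-193 are the wider.

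Over dose, miR-365 had a downward slope that did not survive adjustment. The slope was -0.034 ± 0.015 on the log2 scale for each added 25 mg/kg/day (SE; unadjusted P = 0.041, adjusted P = 0.177 with limma, and unadjusted P = 0.183 without slide in the model), whereas 7 of 69 names (10.1%) passed in the trend and 16 had an unadjusted P under 0.05. Of its 2 probes, A_54_P4391 had a slope of -0.042 ± 0.018 and A_54_P4390 one of -0.025 ± 0.015 (adjusted P = 0.112 and 0.324 over the 112 probes present). The slope of miR-193 was 0.005 ± 0.053 (adjusted P = 0.982). In the fit with slide, the order of the miR-365 levels was 25 mg/kg/day, control, 50 and 75 mg/kg/day. The step from 25 to 50 mg/kg/day was the largest between neighbours in dose, at -0.10 ± 0.04 (SE; unadjusted P = 0.0166, adjusted P = 0.212, and -0.11 ± 0.03 with adjusted P = 0.0511 with array yield in the model), and that from 50 to 75 mg/kg/day was -0.01 ± 0.03 (adjusted P = 0.961). In each of these steps 1 name (1.45%) passed, which was miR-34a. For miR-193 the steps were -0.04 ± 0.15 and -0.05 ± 0.14 (adjusted P = 0.956 and 0.961). For both microRNAs, no difference between neighbours in dose or in level passed the threshold once adjusted.

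Comparison within slides gave small and partly opposed differences. For miR-365 at 75 mg/kg/day the difference from control was -0.15 on slide 1 (2 arrays against 1) and -0.06 on slide 3 (1 against 2). At 50 mg/kg/day it was -0.08 and -0.02 on these slides, and at 25 mg/kg/day -0.02 and 0.07. With slide ignored, exact permutation (two-sided) gave P = 0.446, 0.571 and 0.554 for miR-365 at the 3 doses. Restricted to slides with both groups, the exact test gave P = 0.300 at 25 mg/kg/day and P = 0.111 at 50 and 75 mg/kg/day, and for these last doses 9 arrangements allow no P below 0.111. For miR-193 the differences on slides 1 and 3 were opposed at each dose: -0.14 and 0.32 at 25, 0.24 and -0.19 at 50, and 0.07 and -0.07 at 75 mg/kg/day. The exact test gave P = 0.393, 0.482 and 0.446 for miR-193 with slide ignored, and P = 0.400, 0.778 and 1 within slides. Whether the slides differed in response was not tested.

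The neighbouring microRNAs were also compared with each other on each array, as miR-365 minus miR-193 on the log2 scale. This difference averaged -1.21 ± 0.18 in controls (SD, n = 3), -1.31 ± 0.20 at 25, -1.41 ± 0.29 at 50 and -1.38 ± 0.14 at 75 mg/kg/day (SD, n = 5 each). It shows a relative shift of signal only, since each probe has its own brightness. Background was kept and miR-365 was the dimmer, so its changes are understated the more. An equal change of both RNAs could therefore also shift the difference. Relative to control it shifted by -0.10, -0.21 and -0.17 at successive doses, and the two-sided exact permutation P was 0.464, 0.286 and 0.196 (adjusted over the 3 doses, 0.464, 0.429 and 0.429). Below every control lay 2, 4 and 4 of 5 arrays. Within slides the shifts were -0.11, -0.08 and -0.11, with an exact P of 0.400, 0.667 and 0.667. When replicate 5 of the highest dose was left out, the shift at that dose was -0.23, with an exact P of 0.0286, so this unadjusted P depended on 1 array. That test ignored slide. The array left out was the only 1 of its dose on slide 3, which held 2 of the 3 controls, so slide and dose were mixed there.

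On the normalised scale, the spread of the pair was unequal. Within group and slide, the residual SD of miR-193 was 0.240 on the log2 scale, which ranked 4 of 69 names from the highest, and that of miR-365 was 0.0485, which ranked 62. The median over the names was 0.0807. Background was kept in these values and both probes of miR-365 were dim, so its spread is understated. The ranks therefore do not order the variation of the RNAs themselves. In Agilent's total gene signal, from which background has been subtracted, both ranged widely, from 64.2 to 232 for miR-193 and from 21.7 to 107 for miR-365. The means of miR-365 on that scale were 71.3 ± 34.3 in controls (SD, n = 3), 55.9 ± 38.2 at 25, 58.9 ± 15.0 at 50 and 51.9 ± 11.5 at 75 mg/kg/day (SD, n = 5 each). Those of miR-193 were 166 ± 60.1, 131 ± 69.3, 158 ± 33.5 and 141 ± 23.6. These values are not normalised between arrays, and in both microRNAs the groups overlapped.

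How the level of miR-193 moved among arrays depended on normalisation. The share of spots well above background, taken as the yield of an array, was set against each level after slide means were removed, a check chosen after the values were seen. Before normalisation, the log2 signal of miR-193 rose with yield across the 18 arrays (r = 0.82, rho = 0.79, permutation P = 0.00014). That of miR-365 did so too (r = 0.77, rho = 0.81). Yield and signal are read from the same scan, so this rise is not particular to miR-193. After normalisation the level of miR-193 fell with yield (r = -0.80, rho = -0.73, permutation P = 0.0001), with r = -0.91 on slide 1 and r = -0.93 on slide 3 and r = -0.74 without the 2 arrays farthest in yield. Replicate 4 at 25 mg/kg/day shows this: it had the lowest median signal for probe A_54_P2375, 162, and a normalised level of 8.24 that was exceeded on 2 arrays only. Replicate 1 at 50 mg/kg/day, with the highest normalised level, had the lowest yield of slide 1, 9.11%. Normalised miR-365 gave r = -0.29 (rho = -0.27, permutation P = 0.286), with r = 0.35 on slide 1 and -0.96 on slide 3. Over the 6 relations computed with yield, adjusted P-values were 0.00021 and 0.0002 for miR-193 before and after normalisation and 0.286 for normalised miR-365. With yield in the model, the change of miR-193 was 0.10 ± 0.09, 0.02 ± 0.10 and -0.07 ± 0.10 at the 3 doses and that of miR-365 was 0.04 ± 0.03, -0.08 ± 0.04 and -0.09 ± 0.04 (SE), and none passed the threshold (lowest adjusted P = 0.0962 with limma).

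Across arrays, the correlation of the pair on the main normalised scale was not past 0.05 once slide was removed. Over all 18 arrays miR-193 and miR-365 correlated with r = 0.52 and rho = 0.57 (permutation P = 0.0264 and 0.0139, and 0.0791 and 0.065 when adjusted over the 6 forms of this relation). With slide means removed, r was 0.33 and rho 0.23 (P = 0.244 and 0.392, shuffled within slides). Without the 2 arrays farthest in miR-193, r was 0.47 over all arrays and 0.21 with slide means removed. On slide 1, r was -0.31 over 7 arrays (exact permutation P = 0.513), and on slide 3 it was 0.87 over 7 arrays (exact permutation P = 0.0101, adjusted P = 0.0607). The difference between slides was not tested, and 2 of the 7 arrays of slide 3, replicates 4 and 5 at 25 mg/kg/day, had the lowest yields of all, 5.72% and 7.21%. The relation also turned on the scaling: with array medians centred in place of loess, r was 0.94 with slide means removed, and there both levels rose with yield (r = 0.87 for miR-193 and 0.83 for miR-365). In that setting the median r with the 68 other names was 0.95 for miR-193 and 0.94 for miR-365. An r of 0.94 there was thus not particular to the pair. With slide means removed, r was 0.72 in total gene signal and 0.76 in processed signal, both past 0.05 by permutation. It was 0.53 with normexp background correction. The median r with other names, for miR-193 and miR-365, was -0.29 and -0.12, -0.18 and 0.09, and -0.15 and 0.06 in these settings. Background was kept in the main values, and its part in their lower r was not tested.

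**Figure D5:**
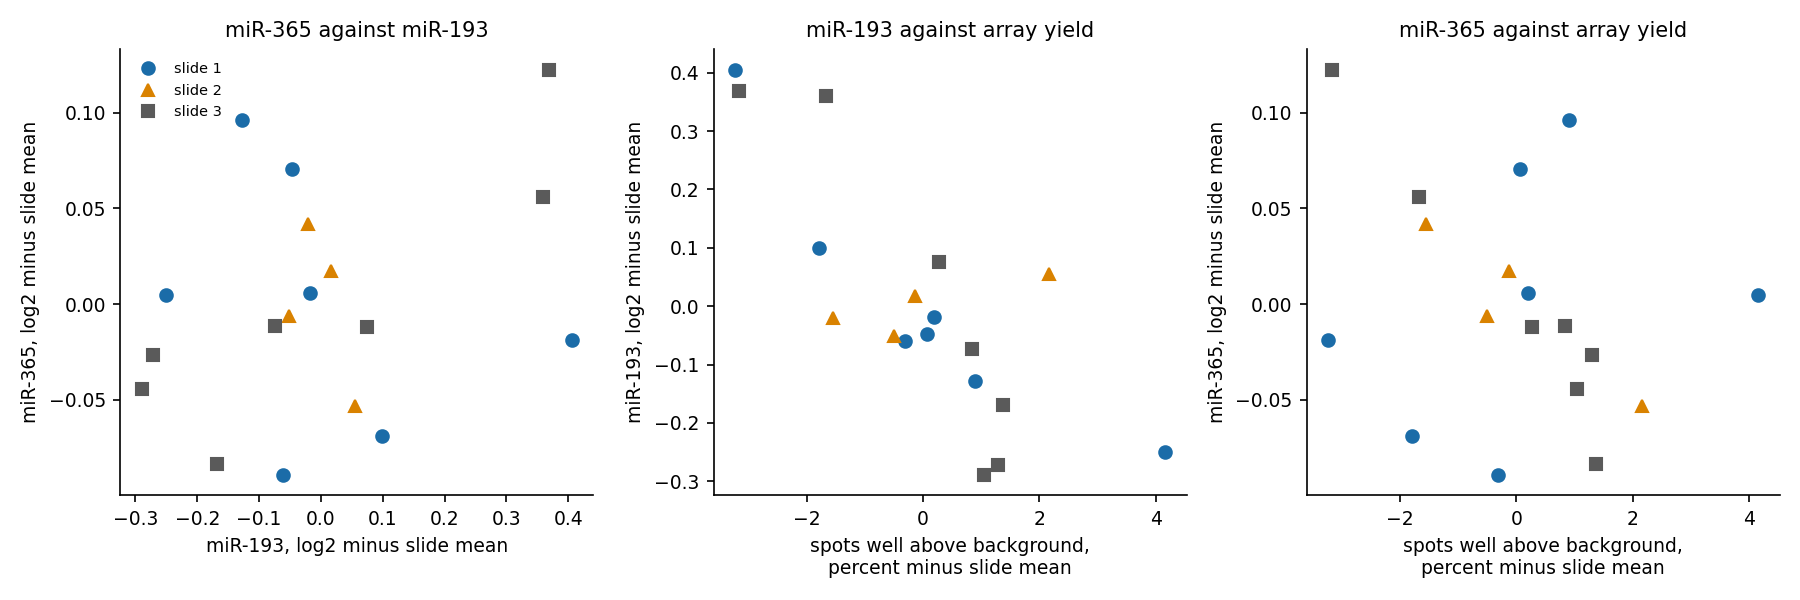
Each point is 1 array after its slide mean was removed, with symbols for the 3 slides. Left, normalised log2 level of miR-365 against miR-193 (r = 0.33). Middle and right, the levels of miR-193 (r = -0.80) and miR-365 (r = -0.29) against the percent of spots well above background.

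The names with patterns most like each member, by Pearson's r over the 18 arrays with slide means removed, are given as a description. For miR-193 they were mmu-miR-702 (r = 0.82), mghv-miR-M1-2, a name for a murine herpesvirus microRNA (r = 0.81), and mmu-miR-23b (r = 0.76), with a median r of -0.13 over the 68 other names. For miR-365 they were mmu-miR-101b (r = 0.72), mmu-miR-23b (r = 0.66) and mmu-let-7b (r = 0.65), with a median r of 0.14. Among these 68 names, miR-365 ranked 15 for miR-193 and miR-193 ranked 19 for miR-365 (r = 0.33). The ranks depended on the scaling, and were 4 and 5 in total gene signal (r = 0.72), 8 and 1 in processed signal (r = 0.76) and 42 and 35 with array medians centred (r = 0.94).

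Of 19 listed names tied to brown fat and muscle differentiation, the 2 members included, 5 met the presence rule: miR-193, miR-365, miR-27b, miR-26a and miR-26b. Without the members it was 3 of 17, beside 69 of 576 names (12.0%) on the whole array. None of the 5 passed the threshold against control at any dose. Their median log2 change at 50 and 75 mg/kg/day was the value of miR-365 itself, so the 3 others are given apart. At 25, 50 and 75 mg/kg/day miR-27b changed by 0.13, -0.01 and 0.03. At these doses miR-26a changed by 0.05, -0.13 and -0.15 and miR-26b by -0.13, -0.29 and -0.31. The median over all 69 names was -0.02, -0.02 and -0.03. In the trend 1 of the 5 passed, miR-26b, which fell by 0.10 ± 0.03 per 25 mg/kg/day (SE; adjusted P = 0.0466), beside 10.1% of all names. Without control replicate 1 its slope was -0.05 (adjusted P = 0.234 with limma). The muscle markers miR-1, miR-133a, miR-133b and miR-206 did not meet the presence rule, and miR-206 was listed at the floor of 0.1 in total gene signal on every array. miR-196a and miR-155, which act on brown fat differentiation in opposite directions, were also at 0.1 throughout.

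Markers of other liver cell types are given beside the members. Of 9 erythroid and white blood cell names 3 were tested (miR-451, miR-144 and miR-223), with log2 changes at 75 mg/kg/day between -0.14 and -0.004 and none past the threshold. Of 2 endothelial names miR-126-3p was tested and changed by -0.06 at that dose, also short of the threshold. Of 5 stellate and mesenchymal names miR-199a-3p was tested and fell by 0.22, as stated above, while miR-214 and miR-145 were at 0.1 on every array. The part of any of these in the values of the members was not tested.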

How the data were processed

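Small RNA of 18 livers was hybridised to 1-colour Agilent arrays. Per the methods of the study, images were extracted with Agilent Feature Extraction 10.7.3.1. The deposited spot intensity values were read as linear and not normalised. The authors also deposited a table read as log2 signal without background subtraction (r from 0.990 to 0.998 with the scanner values). Its array medians lay between 5.74 and 5.76, so the arrays share a common centre, and the methods of the study describe cyclic lowess normalisation. The table served as an alternative only.

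Following the methods of the study, median signals without background subtraction were log2 transformed and normalised by cyclic loess, and slide was a block. Spots with an outlier flag were removed, spots of a probe were summarised by their median and present probes by their mean. A probe was present where 0.5 or more of its spots were well above background on an array, and kept where this held for 0.8 or more of a group's arrays, which left 112 probes of 69 names. Since background was kept, changes of dim probes are understated. In place of MAANOVA with residual shuffling, limma 3.58.1 (R 4.3.3) was used on all 18 arrays, with a threshold of adjusted P = 0.05. It was tested on simulated data. Exact tests and correlations (100000 shuffles unless exact) used Python 3.11.15 and SciPy 1.17.1. The arrays lay on 3 slides, of 7, 4 and 7 arrays, and scan dates gave the same partition. The methods of the study describe the removal of arrays of poor quality, and other control animals were not analysed here. Replicates were separate animals, and their numbers only name arrays. Named microRNAs were the members, their hairpin relatives, the 3 names most correlated with each, names that passed where 5 or fewer did, and fixed lists of differentiation and cell type microRNAs. Members and lists were chosen with earlier results of these data known. No spot was saturated, and the number of arrays limits the precision.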

Additional observations from a re-analysis of the deposited data

Results flagged for a closer look

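Each dose group of 5 arrays was checked for an array apart from the others in miR-193, miR-365, their difference and the 4 probes. Of 21 groups checked, 0 had a gap to the nearest array, divided by the range, above the critical value of 0.71. The checks were not all distinct, since miR-193 and its probe A_54_P2375 have the same values. Slide was not taken into account, so its differences add to the range of a group.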

How the results depend on the processing

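No paired analysis was possible because replicate numbers here are accession order and pair no animals. Neither member passed the threshold in the 8 comparisons with limma under any of 14 other settings or in 18 fits that left out 1 array each (lowest adjusted P = 0.0787), nor in the steps between doses (lowest adjusted P = 0.0511, miR-365 from 25 to 50 mg/kg/day with yield in the model). A sign near 0 was not stable. Centring array medians gave miR-193 -0.29, -0.27 and -0.28 at 25, 50 and 75 mg/kg/day and -0.070 per step in the trend, gave miR-365 -0.16 at 25 mg/kg/day and gave their difference 0.12 there. It moved the median of all names to -0.23, -0.25 and -0.25. The authors' table gave miR-193 -0.057 at 25, -0.033 at 75 mg/kg/day and -0.0045 in the trend, and miR-365 -0.088 at 25 mg/kg/day, with the median of all names at -0.11, -0.06 and -0.11. Total gene signal gave miR-193 -0.0058 at 75 mg/kg/day and -0.014 in the trend (median of all names -0.15, -0.13 and -0.19). The mean over all probes and no presence rule each gave miR-193 -0.0024 at 75 mg/kg/day and -0.0068 in the trend, the highest dose with control alone gave -0.0019, and yield in the model, added after seeing the data, gave -0.069 at 75 mg/kg/day and -0.036 in the trend. Processed signal gave miR-365 0.17 at 50, 0.10 at 75 mg/kg/day and 0.012 in the trend (median of all names 0.06, 0.10 and 0.10). Quantile normalisation gave probe A_54_P4390 -0.037 at 25 mg/kg/day. With 1 array left out, miR-193 ran from 0.038 to 0.22 at 25 mg/kg/day, and it and its probe A_54_P2375 ran from -0.029 to 0.28 at 50, from -0.037 to 0.13 at 75 mg/kg/day and from -0.021 to 0.039 in the trend. miR-365 ran from 0.019 to 0.069, from -0.076 to -0.030 and from -0.089 to -0.043 at successive doses, the difference of the pair from -0.17 to -0.0031 at 25 and from -0.24 to -0.073 at 75 mg/kg/day, and the correlation of the pair from 0.11 to 0.45. The correlation of the pair with slide means removed passed 0.05 with array medians centred (r = 0.94, P = 1e-05, the smallest the shuffles can give), total gene signal (r = 0.72, P = 0.00504) and processed signal (r = 0.76, P = 0.00675). The median r with the 68 other names was 0.95 for miR-193 and 0.94 for miR-365 with array medians centred. It was -0.29 and -0.12 in total gene signal, and -0.18 and 0.09 in processed signal. Why the correlation of the pair differed among settings was not tested. The number of all names called ran from 0 to 7 at 25, 0 to 3 at 50, 1 to 9 at 75 mg/kg/day and 1 to 8 in the trend over settings, and from 0 to 1, 1 to 4, 1 to 9 and 4 to 11 with 1 array left out. At 75 mg/kg/day 1 of 4 calls was higher, and 4 of 4 in processed signal. miR-365 lay near background, which limits what could be seen of it.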
